A study of Homo sapiens with 9 samples.

Results

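The 10 genes described here encode the chromosomal passenger complex and the proteins that build the cleavage furrow and the midzone in late mitosis. They are AURKB, BIRC5, INCENP and CDCA8 of the passenger complex, RACGAP1 and KIF23 of centralspindlin, the RHOA exchange factor ECT2, the scaffold ANLN, the midzone bundler PRC1 and the GTPase RHOA. They were chosen by name, as steps that cells pass over in endomitosis, and their Ensembl gene IDs were found in both deposited tables. All 10 were present among the 63241 genes of each table, and 10 of 10 were among the 14592 genes with enough counts to be tested.

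Poly(A) RNA was sequenced from MEG-01, an established human megakaryoblast line from chronic myeloid leukaemia. The 3 groups were cells treated with As2S2 (arsenic disulfide), cells treated with PMA (a phorbol ester that activates protein kinase C) and control cells, with 3 libraries each. The labels gave no dose, treatment time or vehicle and did not say that replicates came from different cultures, so the p-values rest on a spread between libraries that may be technical. The series asks how As2S2 acts on megakaryocyte differentiation in this line and in mice, and PMA is an established inducer of the line.

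In a dividing cell the passenger complex corrects kinetochore attachments on the chromosomes and then moves to the midzone, where its kinase AURKB phosphorylates centralspindlin. Centralspindlin recruits ECT2, which loads RHOA with GTP at the equator, and active RHOA drives formins, citron kinase and myosin II in the contractile ring that ANLN ties to the membrane. Maturing megakaryocytes enter mitosis repeatedly without completing this last step and so become polyploid. Many late cell-cycle genes carry a CHR element close to the start site and CCAAT boxes upstream, which are bound by the DREAM and MuvB complexes and by NF-Y.

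Promoters are shown so that the letters near the start sites can be set beside the values of each gene below. RefSeq sequences (GRCh38.p14, 250 bases before and 50 after the start) were found for 8 of the 10 genes, and AURKB and ECT2 had 2 starts each. BIRC5 and RACGAP1 had no entry. Capitals mark the hexamers TTTGAA or TTCGAA (called CHR here) and the pentamer CCAAT, each read on both strands, so that a CCAAT on the opposite strand appears as ATTGG.
CDCA8 (chr1:37692266-37692565, plus strand): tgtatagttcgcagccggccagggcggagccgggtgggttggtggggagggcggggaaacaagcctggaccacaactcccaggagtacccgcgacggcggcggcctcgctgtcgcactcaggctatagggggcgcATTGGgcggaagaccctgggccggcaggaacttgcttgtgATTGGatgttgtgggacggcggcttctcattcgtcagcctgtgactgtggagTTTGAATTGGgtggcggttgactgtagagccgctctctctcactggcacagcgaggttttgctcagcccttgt
INCENP (chr11:62123761-62124060, plus strand): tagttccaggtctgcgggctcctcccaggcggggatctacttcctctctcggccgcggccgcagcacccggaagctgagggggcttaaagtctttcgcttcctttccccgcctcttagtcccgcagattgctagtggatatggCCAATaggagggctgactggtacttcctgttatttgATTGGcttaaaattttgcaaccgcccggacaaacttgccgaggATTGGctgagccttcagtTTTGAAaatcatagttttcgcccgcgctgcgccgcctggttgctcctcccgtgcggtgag
KIF23 (chr15:69414099-69414398, plus strand): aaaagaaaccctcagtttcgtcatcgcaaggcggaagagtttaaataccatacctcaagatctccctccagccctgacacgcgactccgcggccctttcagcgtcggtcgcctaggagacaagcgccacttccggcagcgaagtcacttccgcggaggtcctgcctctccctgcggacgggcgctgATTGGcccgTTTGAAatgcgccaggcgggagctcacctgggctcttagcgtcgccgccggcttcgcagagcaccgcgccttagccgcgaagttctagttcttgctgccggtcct
PRC1 (chr15:90994486-90994785, minus strand): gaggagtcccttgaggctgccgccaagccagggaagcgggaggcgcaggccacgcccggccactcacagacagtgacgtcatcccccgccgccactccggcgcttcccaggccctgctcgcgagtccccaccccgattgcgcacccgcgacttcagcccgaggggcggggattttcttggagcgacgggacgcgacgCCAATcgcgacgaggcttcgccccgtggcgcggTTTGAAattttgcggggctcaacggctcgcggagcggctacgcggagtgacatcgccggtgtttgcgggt
AURKB (chr17:8210176-8210475, minus strand): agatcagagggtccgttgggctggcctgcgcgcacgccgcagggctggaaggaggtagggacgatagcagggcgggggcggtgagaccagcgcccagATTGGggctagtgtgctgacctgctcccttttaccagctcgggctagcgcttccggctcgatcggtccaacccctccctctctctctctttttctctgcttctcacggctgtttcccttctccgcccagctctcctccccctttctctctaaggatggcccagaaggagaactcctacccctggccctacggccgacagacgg
RHOA (chr3:49411927-49412226, minus strand): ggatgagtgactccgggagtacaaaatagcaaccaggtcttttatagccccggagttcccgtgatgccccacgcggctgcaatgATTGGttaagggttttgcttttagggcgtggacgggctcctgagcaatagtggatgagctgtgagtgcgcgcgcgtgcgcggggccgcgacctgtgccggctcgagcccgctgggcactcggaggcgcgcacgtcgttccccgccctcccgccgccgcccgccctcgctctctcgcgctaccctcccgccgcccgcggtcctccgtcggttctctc

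Counted from the first transcribed base as position 0, the CHR hexamer began at -23 in CDCA8, -10 in INCENP, -55 in KIF23 and -20 in PRC1. In CDCA8 its last base was also the first base of an ATTGG. ANLN held a hexamer on each strand, beginning at -26 on the opposite strand and at -20 on its own, and ECT2 held 1 at -115 and another at 34 from its first listed start. The hexamer was therefore present in 6 of 8 genes, against 16.4% of all 35116 RefSeq promoters of the same length. The listed windows of AURKB and RHOA did not hold it. In the AURKB window printed above, an ATG lies directly after the listed start. Whether the listed AURKB starts include its main start was not checked, so its matches and lack of matches hold for these windows only. CCAAT was present in 7 of 8 genes, against 34.6% of promoters, and ANLN lacked it. The octamers TTTCCCGC, TTTGGCGC, TTTCGCGC and TTTGCCGC, spellings of an E2F site, were present in 0 of 8 genes and in 3.31% of promoters. These matches describe letters in a window, not binding.

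Facts of the libraries that bear on these genes were as follows. Libraries held between 18.2 and 20.37 counts in units of 1e6. Control replicate 2 and As2S2 replicate 1 stood apart within their groups: the chi-square per gene was 12.01 to 15.2 in pairs that held 1 of them and 2.42 to 3.46 in the remaining pairs within groups. Of the megakaryocyte markers listed, 7, 8 and 7 of 10 reached 1 CPM (counts scaled to 1e6 per library) with As2S2, with PMA and in control, whereas the mature markers PF4 and VWF stayed below 1 CPM in all 3 groups. Their summed level ran from 1068 to 1243 CPM with As2S2, from 1259 to 1302 CPM with PMA and from 1181 to 1381 CPM in control. Erythroid markers summed to 4359 to 4760 CPM with As2S2, 19300 to 20612 CPM with PMA and 3057 to 3570 CPM in control. The part of that difference in the results below was not tested. Monocyte markers summed to at most 22.3 CPM in any library, with CD163 and MARCO at 0 in all 9, and endothelial markers to 138 to 146 CPM with As2S2, 181 to 200 CPM with PMA and 114 to 133 CPM in control. Granulocyte and lymphoid markers summed to at most 0.258 and 2.14 CPM.

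The mRNAs of this machinery were mostly lower with PMA and mostly higher with As2S2. With PMA 9 of the 10 genes fell against control, by log2 fold changes of -0.21 in RACGAP1 to -1.30 in KIF23. RHOA alone rose, by 0.16, on the scale of CPM with TMM scaling, a sign that turned with the scaling as given below. Across all 14592 genes 61.9% were called, 31.1% lower and 30.8% higher, so the count of genes called is read against that background. With As2S2 7 of the 10 rose and 0 fell, by 0.29 in AURKB to 0.79 in CDCA8, against 39.9% of all genes called, 20.3% higher and 19.6% lower. In 6 of the 10 all As2S2 libraries lay above all control libraries and in 0 below, against 23.1% and 22.7% of all genes. All PMA libraries lay below all control libraries in 9 and above them in 1, against 33.7% and 33.8% of all genes. The median log2 fold change of the 10 genes was -0.75 with PMA and 0.39 with As2S2, against medians of 0.00476 and -6.77e-05 for all genes tested. The comparisons share the 3 control libraries. In bulk RNA, fewer dividing cells and less of each RNA per dividing cell cannot be told apart.

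**Figure D1:**
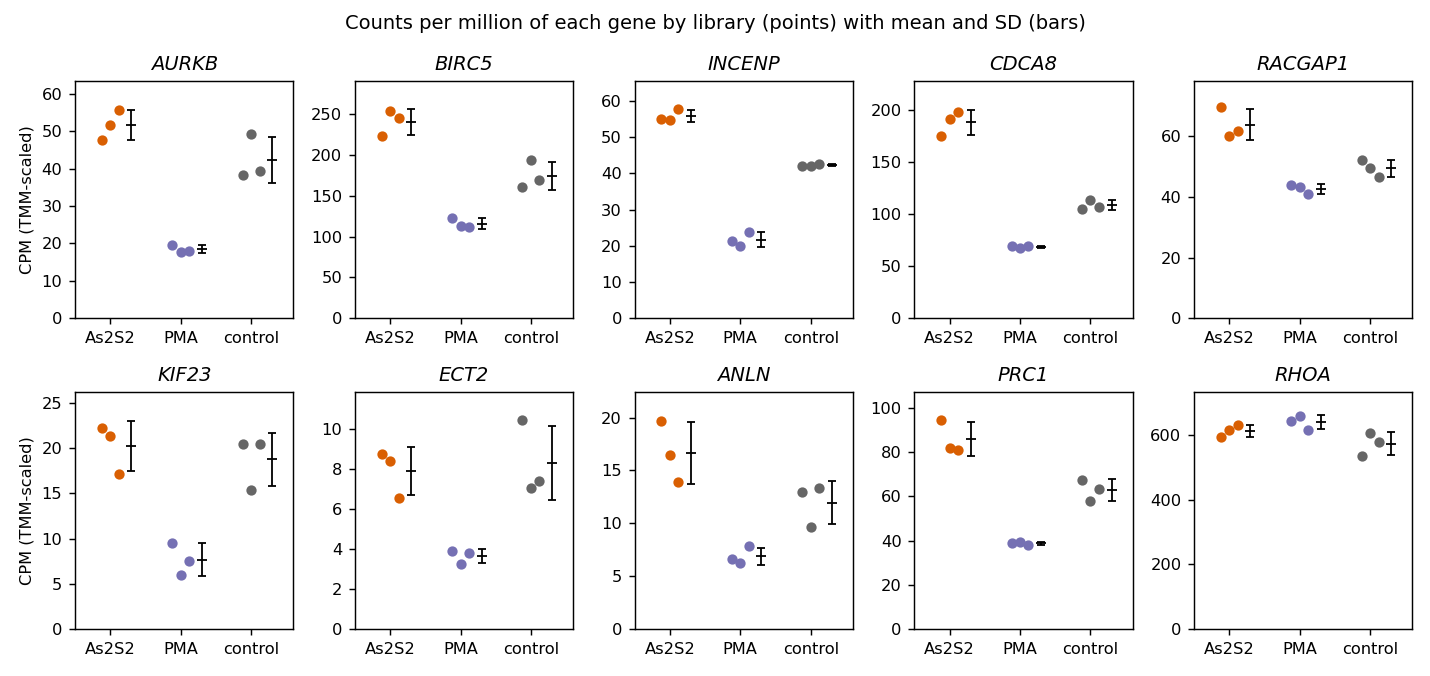
CPM (TMM-scaled, y axes from 0) of each of the 10 genes in the 9 libraries. Points are libraries of the As2S2, PMA and control groups (3 each) and bars are mean and SD; in 9 panels all 3 PMA libraries lie below all 3 control libraries, and RHOA is the exception.

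The passenger complex consists of the kinase AURKB and the localisation subunits INCENP, survivin (BIRC5) and borealin (CDCA8). AURKB (ENSG00000178999) had 47.7, 51.6 and 55.8 CPM with As2S2, 19.6, 17.9 and 18.1 CPM with PMA and 38.2, 49.3 and 39.4 CPM in control. The PMA libraries lay far below all others, while control replicate 2 lay above As2S2 replicate 1. The log2 fold change was 0.29 ± 0.10 with As2S2 (SE, adjusted p = 0.0336, edgeR) and -1.19 ± 0.11 with PMA (adjusted p = 9.92e-08, edgeR). The As2S2 call did not hold in every setting: its adjusted p was 0.0687 without As2S2 replicate 2, 0.143 without As2S2 replicate 3, 0.125 without control replicate 1, 0.124 without control replicate 3, 0.0766 when only As2S2 and control libraries were fitted and 0.0842 with library totals alone (edgeR). The As2S2 value of AURKB on log2(TPM + 1) was 0.21 (adjusted p = 0.0616, limma).

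BIRC5 (ENSG00000089685), also an inhibitor of apoptosis, had 223, 254 and 245 CPM with As2S2, 123, 113 and 111 CPM with PMA and 161, 194 and 169 CPM in control. The 3 groups did not overlap. It rose by 0.46 ± 0.08 with As2S2 (adjusted p = 0.000264, edgeR) and fell by 0.59 on the log2 scale with PMA (SE 0.08, adjusted p = 9.76e-06, edgeR). Its estimated counts were whole in 1 of the 9 libraries, so its level is less certain. INCENP (ENSG00000149503), the scaffold that activates the kinase, had 55.0, 54.8 and 57.6 CPM with As2S2, 21.4, 19.8 and 23.8 CPM with PMA and 42.1, 42.1 and 42.5 CPM in control. Its groups did not overlap either, and its control libraries were nearly equal. The log2 fold changes were 0.40 ± 0.08 with As2S2 (adjusted p = 0.00126, edgeR) and -0.96 ± 0.09 with PMA (adjusted p = 1.02e-07, edgeR).

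CDCA8 (ENSG00000134690) had 175, 192 and 198 CPM with As2S2, 69.0, 67.1 and 68.9 CPM with PMA and 105, 114 and 107 CPM in control. Every As2S2 library was above and every PMA library below the whole control range. Its rise of 0.79 ± 0.07 with As2S2 (adjusted p = 3.65e-07, edgeR), a 1.73-fold higher level, was the largest among the 10 genes, and with PMA it changed by -0.67 ± 0.07 (adjusted p = 6.53e-07, edgeR). The calls of BIRC5, INCENP and CDCA8 against control were kept whichever of the 9 libraries was left out.

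Within each library the makeup of the complex was also compared per length, as TPM (transcript abundance corrected for length and scaled to a fixed total per library). Shares and ratios within a library need no scaling between libraries, whereas summed TPM set side by side between groups depends on it. The 4 subunits summed to 193 to 214 TPM with As2S2, 63.1 to 68.7 TPM with PMA and 149 to 159 TPM in control. AURKB made up 20.9 ± 0.453% of that sum with As2S2, 18.2 ± 0.155% with PMA and 23.99 ± 0.920% in control (SD, n = 3 libraries each), so its share was lower in all treated libraries than in any control library. BIRC5 made up 38.2 ± 0.941% with As2S2, 45.2 ± 0.437% with PMA and 40.1 ± 0.531% in control. Its share was higher in every PMA library and lower in every As2S2 library than in control. CDCA8 made up 32.7 ± 0.169% with As2S2, 28.8 ± 0.858% with PMA and 27.4 ± 1.03% in control, without overlap between As2S2 and control but with overlap between PMA and control. INCENP made up 8.24 ± 0.336%, 7.87 ± 0.288% and 8.55 ± 0.375% in the same order, with its PMA libraries all below control. CDCA8 over AURKB was 1.56 ± 0.0256 with As2S2, 1.59 ± 0.0594 with PMA and 1.14 ± 0.0850 in control. The treatments that moved the summed level in opposite directions thus gave overlapping CDCA8 to AURKB ratios in TPM, both above control. That likeness depended on the measure. Between As2S2 and PMA the log2 fold changes of AURKB and CDCA8 were 1.48 and 1.46 under TMM. They were 1.74 and 1.45 once each library's trend of log2 CPM with transcript length was removed (edgeR). With 3 libraries against 3, the smallest 2-sided exact permutation p for such a ratio is 0.1, so these differences are given as values.

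Centralspindlin joins the GTPase-activating protein RACGAP1 to the kinesin KIF23 (MKLP1). RACGAP1 (ENSG00000161800) had 69.6, 60.0 and 61.8 CPM with As2S2, 43.8, 43.3 and 40.8 CPM with PMA and 52.1, 49.4 and 46.7 CPM in control. The groups did not overlap, but the distance between PMA and control was small. It rose by 0.37 ± 0.08 with As2S2 (adjusted p = 0.00219, edgeR) and changed by -0.21 ± 0.08 with PMA (adjusted p = 0.0388, edgeR), the smallest fall of the 9. The PMA call was lost without control replicate 1 (adjusted p = 0.128) and without PMA replicate 1 (0.0704), 2 (0.0760) or 3 (0.143), with upper-quartile scaling (0.0629), with a stricter filter (0.0512) and with the length trend removed (-0.13, adjusted p = 0.173, edgeR in each case). On log2(TPM + 1) RACGAP1 differed by -0.81 with PMA and by 0.16 with As2S2, where the As2S2 call was lost (adjusted p = 0.225, limma).

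KIF23 (ENSG00000137807) had 22.3, 21.4 and 17.1 CPM with As2S2, 9.56, 5.95 and 7.48 CPM with PMA and 20.5, 15.4 and 20.5 CPM in control. As2S2 and control overlapped, and PMA lay below both. It changed by -1.30 ± 0.17 with PMA (adjusted p = 4.03e-06, edgeR), to 40.6% of control. With As2S2 the difference was 0.11 ± 0.15 (95% interval -0.21 to 0.42, adjusted p = 0.616, edgeR), and its sign turned without control replicate 2 (-0.013) and without both that library and As2S2 replicate 1 (-0.088). KIF23 over RACGAP1 in TPM was 0.302 ± 0.0331 with As2S2, 0.242 ± 0.0681 with PMA and 0.298 ± 0.0677 in control, and the 3 ranges overlapped.

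ECT2 (ENSG00000114346), the guanine nucleotide exchange factor that centralspindlin recruits, was the least abundant of the 10. It had 8.76, 8.41 and 6.54 CPM with As2S2, 3.89, 3.24 and 3.82 CPM with PMA and 10.4, 7.09 and 7.43 CPM in control. The PMA libraries lay below all others and As2S2 overlapped control. The PMA change was -1.19 ± 0.18 (adjusted p = 3.07e-05, edgeR). With As2S2 it was -0.08 ± 0.17 (95% interval -0.43 to 0.28, adjusted p = 0.755, edgeR), with the opposite sign without As2S2 replicate 3 (0.04) or control replicate 1 (0.13). The counts behind these values ran from 125 to 168 with As2S2, from 56.0 to 71.0 with PMA and from 137 to 226 in control, and the interval above is the range of differences these libraries leave for ECT2.

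ANLN (anillin, ENSG00000011426) links RHOA, actin, myosin and septins in the ring. It had 19.7, 16.5 and 13.9 CPM with As2S2, 6.60, 6.24 and 7.80 CPM with PMA and 12.9, 9.62 and 13.3 CPM in control. The groups did not overlap, though As2S2 replicate 3 lay just above control replicate 3. The log2 fold change was 0.48 ± 0.15 with As2S2 (adjusted p = 0.0177, edgeR) and -0.80 ± 0.16 with PMA (adjusted p = 0.000442, edgeR). Without As2S2 replicate 1 the As2S2 value was 0.34 (adjusted p = 0.0865, edgeR), and without that library and control replicate 2 it was 0.21 (adjusted p = 0.150, edgeR). The As2S2 call of ANLN was also missed with library totals alone (0.39, adjusted p = 0.0689, edgeR) and on log2(TPM + 1) (0.48, adjusted p = 0.0716, limma).

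PRC1 (ENSG00000198901), which bundles antiparallel midzone microtubules, had 94.7, 82.0 and 80.8 CPM with As2S2, 38.7, 39.5 and 38.2 CPM with PMA and 67.5, 57.7 and 63.3 CPM in control. All 3 groups were separate. It rose by 0.45 ± 0.08 with As2S2 (adjusted p = 0.000531, edgeR) and changed by -0.70 ± 0.09 with PMA (adjusted p = 3.35e-06, edgeR). Its counts were whole in 0 of the 9 libraries. In GENCODE 29 it shares 3181 exon bases on the same strand with AC068831.7, which held 401 counts over the As2S2 libraries, 159 over the PMA libraries and 131 over the control libraries, so its level is less certain than that of genes with whole counts.

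RHOA (ENSG00000067560) was by far the most abundant of the 10, with 595, 614 and 631 CPM under As2S2, 644, 659 and 617 CPM under PMA and 536, 606 and 578 CPM in control. PMA lay just above the control range and As2S2 overlapped it. The PMA difference of 0.16 ± 0.07 passed the threshold narrowly (adjusted p = 0.0469, edgeR), and without any of 6 libraries it did not: As2S2 replicate 2 (adjusted p = 0.0618) or 3 (0.0708), control replicate 1 (0.184) or 3 (0.0927), and PMA replicate 1 (0.102) or 2 (0.152). The RHOA call was also missed with no filter on low counts (0.11, adjusted p = 0.278, edgeR). With As2S2 it was 0.10 ± 0.07 (95% interval -0.04 to 0.24, adjusted p = 0.260, edgeR), and without both libraries that stood apart 0.16 (adjusted p = 0.00427, edgeR).

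The sign for RHOA with PMA depended on the scaling. In TPM it had 290, 295 and 302 with As2S2, 236, 245 and 243 with PMA and 290, 299 and 315 in control, so that PMA lay below control. On log2(TPM + 1) the PMA difference was -0.32 (adjusted p = 0.000226, limma), and on CPM scaled by library totals alone it was -0.10 (adjusted p = 0.107, edgeR). Those scalings moved the median of all genes by -0.26 each with PMA. Relative to that median RHOA stood at 0.15 under TMM, 0.15 under library totals and -0.05 in TPM. TMM factors were 0.892 to 0.922 in PMA libraries, against 1.04 to 1.11 in control, and 1.02 to 1.03 with As2S2. The 10 most abundant genes took 14.8 ± 0.0890% of counts with PMA, against 11.8 ± 0.183% in control, and mitochondrial transcripts 10.1 ± 0.112%, against 8.04 ± 0.150%. Their part in the shift was not tested. RHOA also overlaps 214 exon bases of TCTA on the opposite strand, and its counts were whole in 0 libraries.

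**Figure D2:**
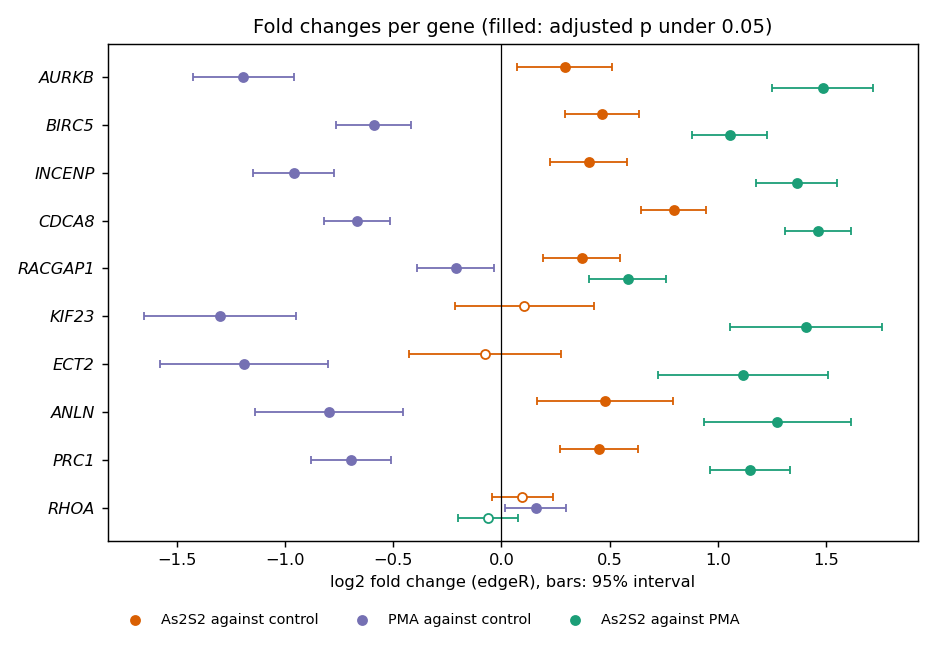
Log2 fold changes (edgeR, x axis) of the 10 genes with 95% intervals for As2S2 against control, PMA against control and As2S2 against PMA; filled points passed an adjusted p of 0.05. The 9 genes other than RHOA lie left of 0 with PMA, and KIF23, ECT2 and RHOA have open points with As2S2.

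The 9 genes that fell with PMA kept their direction under every scaling tried. The log2 fold changes of AURKB, for example, were -1.19 with TMM, -1.45 with library totals alone, -1.54 on log2(TPM + 1) and -1.42 after removing each library's trend of log2 CPM with transcript length. Ratios to RHOA within a library need no scaling between libraries. In TPM they still depend on the estimated transcript lengths, which differed between PMA and control for RHOA, as given below. The summed TPM of the passenger complex over that of RHOA was 0.694 ± 0.0222 with As2S2, 0.275 ± 0.0151 with PMA and 0.513 ± 0.0186 in control (SD, n = 3 each), with no overlap between groups. The As2S2 ratio was 1.35 times and the PMA ratio 0.536 times that of control.

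**Figure D3:**
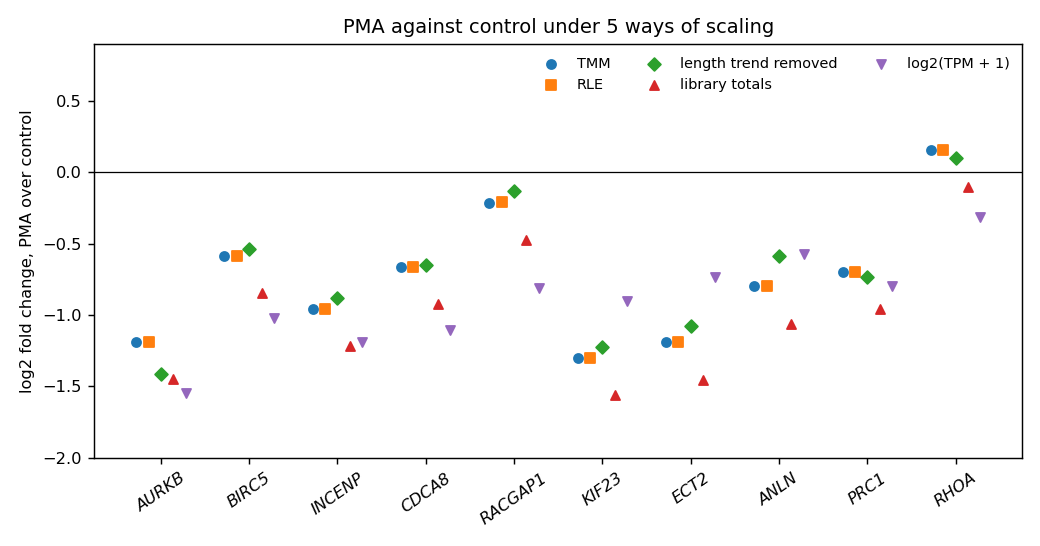
Log2 fold change of PMA over control (y axis) for the 10 genes under TMM, RLE, library totals, log2(TPM + 1) and after removal of the length trend. All points of 9 genes are below 0, and those of RHOA lie on both sides.

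The PMA fold changes varied with transcript length. Relative length was taken as the deposited count over TPM, scaled to the median gene of the library. Over 14590 genes the log2 fold change with PMA had a Spearman correlation of -0.28 with relative length, a description across genes, which are not independent replicates, and with As2S2 it was -0.00874. The median PMA log2 fold change was 0.35 over the 2918 shortest genes and -0.33 over the 2918 longest. Relative lengths of the 10 genes ran from 0.439 in AURKB to 1.73 in ANLN, with AURKB among the 2918 shortest. With the trend removed 8 genes fell, RACGAP1 and RHOA missing the threshold. The deposited estimates also gave different lengths per group for some of the genes. KIF23 had a relative length of 1.24 with As2S2, 0.994 with PMA and 1.44 in control, with PMA (0.867 to 1.14) below control (1.41 to 1.48) in all libraries. ECT2 had 1.11 with PMA against 1.43 in control, and RACGAP1 had 1.32 with PMA against 1.12 in control, both without overlap. RHOA (0.775 with PMA against 0.746 in control) and CDCA8 (1.05 against 1.01) also differed without overlap, though by less. For all of these genes a difference in TPM and one in CPM are therefore not the same quantity.

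Set directly against PMA, As2S2 left 9 of the 10 genes higher, against 61.4% of all genes called, 30.9% higher and 30.6% lower. In all 9 the As2S2 libraries lay above the PMA libraries, as in 33.6% of all genes. AURKB differed by 1.48 ± 0.11 on the log2 scale (adjusted p = 7.99e-09, edgeR), a 2.79-fold higher level, and CDCA8 by 1.46 ± 0.07 (adjusted p = 5.97e-11, edgeR). KIF23 (1.40 ± 0.17), INCENP (1.36 ± 0.09), ANLN (1.27 ± 0.16), PRC1 (1.15 ± 0.09), ECT2 (1.11 ± 0.18) and BIRC5 (1.05 ± 0.08) followed, and RACGAP1 differed least (0.58 ± 0.08, adjusted p = 1.74e-05, edgeR). RHOA did not pass (-0.06 ± 0.07, 95% interval -0.20 to 0.08, adjusted p = 0.441, edgeR), and its sign turned on log2(TPM + 1), with library totals and with the length trend removed. In this comparison no call among the 10 changed when a library was left out.

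Levels per length placed the genes in nearly the same order in every group. RHOA had a mean of 296 ± 6.40 TPM with As2S2, 242 ± 4.75 with PMA and 301 ± 12.6 in control (SD, n = 3 each). BIRC5 (78.3 TPM with As2S2, 29.96 TPM with PMA and 61.9 TPM in control) and CDCA8 (67.0, 19.1 and 42.2 TPM in the same order) came next. Then followed AURKB (43.0, 12.04 and 37.1 TPM) and PRC1 (36.5, 15.7 and 28.01 TPM), which changed places with PMA and overlapped in their libraries with As2S2. RACGAP1 (19.6, 9.46 and 17.4 TPM), INCENP (16.9, 5.22 and 13.2 TPM) and KIF23 (5.93, 2.30 and 5.14 TPM) were lower. ANLN (3.88, 1.31 and 2.48 TPM) and ECT2 (2.04, 0.973 and 2.30 TPM) were last, and in control their libraries overlapped. All other neighbours in the order were separate in every group. In control RHOA stood at the 97.9th percentile of the tested genes by TPM and ECT2 at the 36.4th.

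**Figure D4:**
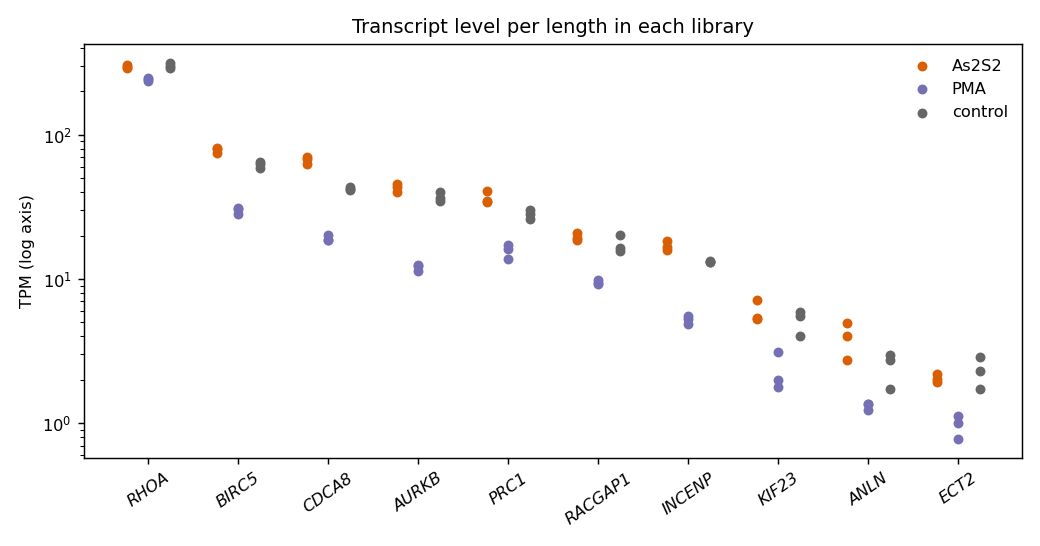
TPM of the 10 genes (log y axis) in each library of the As2S2, PMA and control groups, ordered by control level. RHOA stands highest near 300 TPM and ECT2 lowest at 0.78 to 2.87 TPM, and PMA points lie lowest for every gene.

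Genes that recruit the passenger complex or are acted on by it moved like the complex with PMA. Of the 10 genes listed 9 fell with PMA and 0 rose, with a median of -1.29. AURKC, a kinase related to AURKB and not a recruiter or target, did not pass. With PMA 31.1% of all genes were called lower and 30.8% higher, and with As2S2 19.6% lower and 20.3% higher. The counts of this list and of those that follow are read against these shares. SGO1, the guardian of centromere cohesion, averaged 3.18 ± 0.398 CPM with PMA and 10.1 ± 0.997 CPM in control (-1.67 ± 0.15, adjusted p = 5.96e-08, edgeR). TOP2A, the decatenating topoisomerase, fell by 1.75 on the log2 scale (adjusted p = 8.00e-08), the condensin subunit NCAPG by 1.65 (2.67e-07) and the spindle checkpoint kinase TTK by 1.58 (2.98e-07, edgeR in each case). With As2S2 6 of the 10 rose and 0 fell (median 0.49), TTK and NCAPG by 0.61 each (adjusted p = 0.00234 and 0.00289, edgeR). Both missed the threshold on log2(TPM + 1), TTK at 0.37 (adjusted p = 0.0613) and NCAPG at 0.40 (adjusted p = 0.0665, limma).

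Among 11 kinesins and regulators of the midzone 8 fell and 0 rose with PMA (median -1.31), and with As2S2 5 rose and 1 fell (median 0.25). PLK1, the kinase that primes RACGAP1 for ECT2, averaged 214 ± 18.9 CPM with As2S2, 43.6 ± 1.5 CPM with PMA and 130 ± 10.3 CPM in control. It thus rose by 0.72 ± 0.08 with As2S2 (adjusted p = 3.84e-06, edgeR), fell with PMA (-1.57 ± 0.08, adjusted p = 1.50e-10, edgeR), and was 2.29 higher with As2S2 than with PMA on the log2 scale (adjusted p = 1.71e-12, edgeR). KIF14, which brings citron kinase to the midzone, averaged 10.4 ± 1.59 CPM with As2S2, 1.21 ± 0.255 CPM with PMA and 6.31 ± 1.41 CPM in control (0.72 and -2.38 against control). The chromokinesin KIF4A, the partner of PRC1, changed by 0.48 with As2S2 and -1.31 with PMA. KIF20A, which carries the passenger complex to the midzone, changed by 0.63 and -0.46 in the same order, and KIF20B by -2.08 with PMA. CLASP1 also rose and CDC14A fell with As2S2. The As2S2 calls of KIF14 (0.29, adjusted p = 0.0519), KIF4A (0.29, adjusted p = 0.0713), CLASP1 (0.29, adjusted p = 0.180) and CDC14A (-0.26, adjusted p = 0.0670) were lost on log2(TPM + 1) (limma).

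RHOB and RHOC, close relatives of RHOA, rose with PMA. RHOB, an inducible endosomal protein, averaged 27.3 ± 0.0492 CPM with PMA and 4.33 ± 0.778 CPM in control (2.66 ± 0.15, adjusted p = 1.71e-10, edgeR). RHOC averaged 337 ± 35.1 CPM with As2S2, 589 ± 16.5 CPM with PMA and 195 ± 32.3 CPM in control (0.79 and 1.59 against control, adjusted p = 1.48e-05 and 1.15e-09, edgeR). Both kept these directions under every scaling tried, unlike RHOA. ARHGEF2 (GEF-H1), an exchange factor held by microtubules, averaged 147 ± 3.45 CPM with PMA and 290 ± 12.2 CPM in control (-0.98 ± 0.07, adjusted p = 5.79e-09, edgeR), and ARHGAP11A, a RHOA-directed GTPase-activating protein of dividing cells, fell by 1.79 (adjusted p = 8.21e-09, edgeR). CDC42 and ARHGAP21 were also higher with PMA under TMM, by 0.62 and 0.64, but not past the threshold on log2(TPM + 1), with 0.14 (adjusted p = 0.0748) and 0.31 (adjusted p = 0.110, limma). VAV1 and MYO9B were higher and DLC1 lower with As2S2.

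Ring effectors moved both ways. Of 11 tested genes of 13 listed, 4 rose and 6 fell with PMA (median -0.84), and 4 rose and 1 fell with As2S2 (median 0.03). The shares of all genes called were 61.9% with PMA and 39.9% with As2S2. The As2S2 balance of the ring effectors turned with the setting, to 2 rising and 3 falling on log2(TPM + 1), 3 and 3 with library totals alone, and 3 and 4 without the libraries that stood apart. With PMA the 4 that rose under TMM were all myosin II chains: MYL6 (1.82 ± 0.07), MYL12B (1.20 ± 0.07), MYL12A (0.88 ± 0.08) and the heavy chain MYH9 (0.39 ± 0.07), with adjusted p-values between 1.61e-12 and 0.000134 (edgeR). The call of MYH9 with PMA was lost with library totals alone (0.13, adjusted p = 0.117, edgeR) and on log2(TPM + 1) (0.13, adjusted p = 0.113, limma). MYH10, the heavy chain of myosin IIB, fell to 7.27 ± 0.524 CPM with PMA, against 14.7 ± 3.12 CPM in control (-1.02 ± 0.14, adjusted p = 1.23e-05, edgeR). Citron kinase (CIT) averaged 31.1 ± 3.94 CPM with As2S2, 7.63 ± 0.857 CPM with PMA and 22.4 ± 3.37 CPM in control (0.47 and -1.56, adjusted p = 0.00686 and 7.22e-08, edgeR). MYL6 (1.35 ± 0.07) and MYH9 (0.63 ± 0.07) also rose with As2S2, together with DIAPH3, while DIAPH2 fell. CIT (0.20, adjusted p = 0.288) and DIAPH3 (0.093, adjusted p = 0.708) were not called with As2S2 on log2(TPM + 1) (limma).

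Septins, the filaments that ANLN anchors, were mostly lower with PMA, where 31.1% of all genes were called lower. Of 7 septin genes 6 fell and 1 rose with PMA (median -0.31), led by SEPTIN6 (-0.87 ± 0.09), SEPTIN7 (-0.72 ± 0.12) and SEPTIN11 (-0.66 ± 0.12). With the length trend removed 3 fell and 1 rose (median -0.15), and on log2(TPM + 1) SEPTIN11 missed the threshold (-0.27, adjusted p = 0.446, limma). SEPTIN10 rose by 1.62 ± 0.25 at a low level, with 3.84 ± 0.889 CPM under PMA and 1.23 ± 0.219 CPM in control. With As2S2 1 fell, SEPTIN6 (-0.30 ± 0.08, adjusted p = 0.00937, edgeR), and without As2S2 replicate 1 or control replicate 2 up to 3 fell. The abscission genes, which cut the final bridge, gave the opposite balance to the ring with PMA: of 17 tested of 18 listed 8 rose and 4 fell (median 0.25). That balance turned with scaling, to 3 rising and 6 falling with library totals and to 1 rising and 6 falling on log2(TPM + 1). Of all genes 30.8% were called higher and 31.1% lower with PMA under TMM. CEP55, which brings the ESCRT machinery to the midbody, averaged 12.8 ± 2.03 CPM with As2S2, 2.88 ± 0.159 CPM with PMA and 9.27 ± 0.657 CPM in control (0.47 and -1.69, adjusted p = 0.0103 and 1.20e-07, edgeR). The As2S2 call of CEP55 was lost on log2(TPM + 1) (0.26, adjusted p = 0.145, limma) and without the libraries that stood apart (0.29, adjusted p = 0.0674, edgeR). The ESCRT-III subunits CHMP2A (1.09 ± 0.08) and CHMP4B (0.56 ± 0.07) rose with PMA under TMM, CHMP4B not on log2(TPM + 1) (0.085, adjusted p = 0.237, limma). CHMP4A, VPS4A and SPAST fell under TMM, but VPS4A was at -0.0023 with the length trend removed (adjusted p = 0.986, edgeR). With As2S2 5 abscission genes rose (ZFYVE26 by 1.59 ± 0.10, CEP55, CHMP1A, CHMP4B and IST1) and 3 fell (CHMP1B, CHMP4A and SPAST), where 20.3% of all genes were called higher and 19.6% lower. The counts on log2(TPM + 1) were 2 rising and 3 falling.

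**Figure D5:**
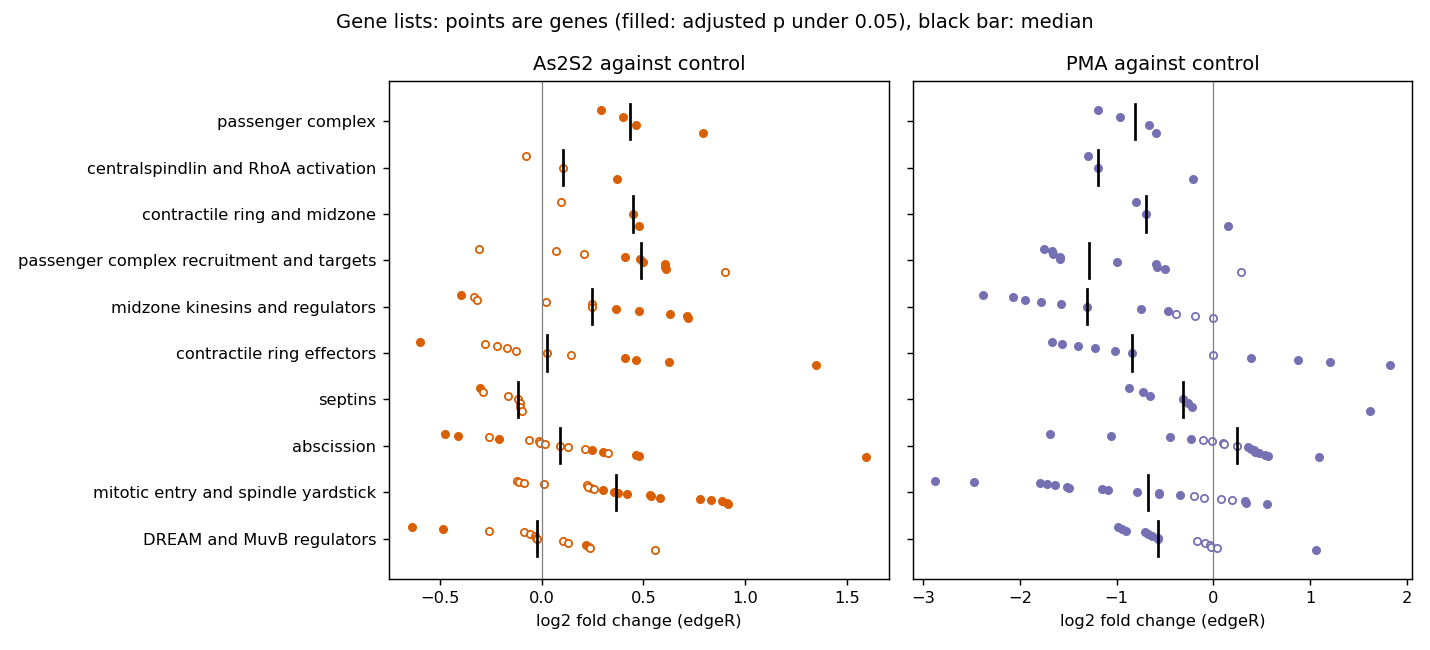
Log2 fold changes (edgeR, x axes) of the genes of the lists shown for As2S2 against control (left) and PMA against control (right); filled points passed an adjusted p of 0.05 and black bars are medians. Lists for the passenger complex, its targets and the midzone have medians of -0.81 to -1.31 with PMA. The ring and abscission lists hold filled points on both sides of 0 with PMA.

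Other mitotic genes gave a yardstick for how far these changes were shared. Of 20 tested genes of mitotic entry and the spindle (21 listed) 13 fell and 3 rose with PMA (median -0.68), and 13 rose and 0 fell with As2S2 (median 0.37). The shares over all genes were 31.1% lower and 30.8% higher with PMA, and 20.3% higher and 19.6% lower with As2S2. The medians of the 10 genes were -0.75 and 0.39, and no test of a difference between the lists was made. The proliferation marker MKI67 averaged 97.8 ± 4.39 CPM with As2S2, 20.5 ± 1.57 CPM with PMA and 67.4 ± 14.9 CPM in control (0.54 and -1.72, adjusted p = 0.00206 and 9.33e-09, edgeR). The spindle assembly factor TPX2 (-1.09), the checkpoint kinase BUB1B (-1.51) and the transcription factor FOXM1 (-1.15) fell with PMA, and FOXM1 rose with As2S2 (0.36), a call lost on log2(TPM + 1) (0.16, adjusted p = 0.215, limma). The 3 that rose with PMA, named after their values were seen, were the entry kinase CDK1 (0.34 ± 0.10, adjusted p = 0.00933), securin PTTG1 (0.56 ± 0.07, adjusted p = 1.94e-06) and AURKA (0.33 ± 0.09, adjusted p = 0.00353, edgeR in each case). AURKA averaged 79.0 ± 8.14 CPM with As2S2, 57.6 ± 1.97 CPM with PMA and 46.0 ± 2.23 CPM in control, in contrast to AURKB with PMA. On log2(TPM + 1) the signs of CDK1 and AURKA with PMA turned (-0.16 and -0.14), and PTTG1 kept its sign but missed the threshold. With library totals alone CDK1 was at 0.077 (adjusted p = 0.532) and AURKA at 0.065 (adjusted p = 0.536, edgeR), so neither was called.

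Of 14 genes of the DREAM and MuvB complexes and their partners 8 fell and 1 rose with PMA (median -0.57), while with As2S2 1 rose, 2 fell and 11 did not pass (median -0.02). The number called with PMA was near the share of all genes, 61.9%, of which 31.1% were lower and 30.8% higher. With As2S2 39.9% of all genes were called. TFDP1, the dimer partner of E2F proteins, fell to similar levels in both, with 62.7 ± 0.575 CPM under As2S2, 61.1 ± 1.0 CPM under PMA and 97.6 ± 1.06 CPM in control (-0.64 and -0.67, adjusted p = 2.23e-06 and 2.65e-07, edgeR). DYRK1A, which phosphorylates LIN52 to assemble DREAM, fell with PMA (-0.58), as did the repressor E2F8 (-0.99) and the CHR-binding subunit LIN54 (-0.95), and E2F7 rose. The call of E2F7 was lost on log2(TPM + 1) (0.23, adjusted p = 0.156, limma), where 0 genes of the list rose and 13 fell with PMA. With As2S2 RBL2 fell and RBBP4 rose, RBBP4 not on log2(TPM + 1) (0.13, adjusted p = 0.158, limma) or with library totals alone (0.14, adjusted p = 0.0768, edgeR). Several calls on single list genes were lost when 1 of the 9 libraries was left out. With As2S2 this happened on 7 of the 9 omissions for DLC1, 6 for CHMP1B, 4 for CDC14A, 4 for SPAST, 3 for DIAPH3 and 2 for RBL2, and with PMA on 3 for VPS4A. The highest adjusted p on leaving out a library was 0.120 for CDC14A, 0.169 for DLC1, 0.0827 for DIAPH3, 0.141 for CHMP1B, 0.101 for SPAST and 0.0687 for RBL2 with As2S2, and 0.114 for VPS4A with PMA (edgeR).

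Genes with the profile nearest to that of the passenger complex were sought over the 9 libraries, in the 9775 genes averaging 5 CPM or more. The distance was the root mean square difference of centred log2 CPM from the mean profile of the 4 subunits. CCNF was nearest (0.0477), followed by CENPA (0.0520), PITRM1 (0.0587), SLC8B1 (0.0591) and CHAF1A (0.0683). The subunits themselves lay at 0.0898 for INCENP, 0.127 for CDCA8, 0.136 for BIRC5 and 0.147 for AURKB from their own mean. The nearest genes were picked as the smallest distances among 9775, whereas the subunits were fixed by name. Their larger distances therefore do not show that the picked genes follow the complex more closely. Genes near to RHOA by the same measure included RAC1 (0.0323), TINF2 (0.0415), FUCA2 (0.0422) and SZRD1 (0.0449).

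The authors' deposited table gave log2 fold changes close to those above. For As2S2 over control it listed 0.79 for CDCA8 with an adjusted p of 8.21e-16 and 0.28 for AURKB with an adjusted p of 0.0756, so that AURKB, called here, missed 0.05 in the authors' deposited table. For PMA over control the authors' deposited table listed -1.33 for KIF23 (adjusted p = 2.02e-11), -0.24 for RACGAP1 (adjusted p = 0.0248) and 0.13 for RHOA (adjusted p = 0.0728), the last again on the other side of 0.05 from the value above.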

How the data were processed

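RNA of 9 MEG-01 libraries (As2S2, PMA and control, 3 each) was measured by poly(A)-selected sequencing with NEBNext Ultra II kits, per the labels. Reads were trimmed with fastp 0.22.0 and compared with DESeq2, per the submitters' processing notes. Those notes name zebrafish builds and 1 control sample carries a non-human organism label, although the gene IDs in the tables are human Ensembl IDs. Aligner, annotation and strand setting were not given in the sources used here; gene coordinates from the tables were left out. For each gene and library the authors deposited an estimated count, not normalized, per the file headers. The authors also deposited TPM values, scaled to transcript length and to the library. The deposited log2 fold changes and adjusted p-values are the authors' own comparison. The control values were identical in both tables.

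Counts were rounded to whole numbers, filtered with filterByExpr and TMM-scaled, and 1 model of all 9 libraries was fitted in edgeR 4.0.16 (R 4.3.3). Contrasts were tested with the quasi-likelihood F-test, Benjamini-Hochberg adjustment over 14592 genes and a threshold of 0.05. The fit was tested on simulated data. Alternatives comprised DESeq2 1.42.0, limma 3.58.1 (voom, and log2(TPM + 1)), upper-quartile and RLE scaling, no filter, a stricter filter, a fit of just 2 groups, a block for the replicate number, and leaving out each library or both that stood apart. Library totals alone and removal of a length trend were chosen after seeing the data. Replicate numbers did not pair the libraries: same-numbered deviations correlated at -0.073 to 0.149. Depth was 18.2 to 20.37 counts a library in units of 1e6.

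The genes and the lists were chosen with earlier results of these data known. All 10 genes are named, with up to 4 genes of each list by smallest adjusted p, a fixed set (ARHGEF2, MYH10, MYH9, RHOB, RHOC, CIT, CEP55, KIF20A, KIF4A, PLK1 and MKI67) and the 5 nearest profiles. Other list genes were named after their values were seen, where 5 or fewer moved in a direction. A few results that the rule covers are not reported here.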

Additional observations from a re-analysis of the deposited data

How the results depend on the processing

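The number of the 10 genes past the threshold stayed at 9 for As2S2 against PMA (10 on log2(TPM + 1)), lay between 8 and 10 for PMA against control and was 7 for As2S2 against control under most settings. On log2(TPM + 1) with limma it was 4 for As2S2 against control, and with library totals alone 5; the cause was not tested. Leaving out 1 library gave 6 to 7 genes with As2S2, 8 to 10 with PMA and 9 between the treatments, and 4729 to 6320, 8282 to 9495 and 8159 to 9568 of all genes in the same order. Signs turned as follows, none of the values past the threshold except RHOA on log2(TPM + 1) with PMA or between treatments. With As2S2 ECT2 was 0.044 without As2S2 replicate 3 and 0.13 without control replicate 1 (range with libraries left out -0.25 to 0.13), KIF23 was -0.013 without control replicate 2 and -0.088 without that library and As2S2 replicate 1 (range -0.088 to 0.21), and RHOA was -0.026 on log2(TPM + 1). With PMA RHOA was -0.32 on log2(TPM + 1) and -0.10 with library totals alone, and CDK1 and AURKA were -0.16 and -0.14 on log2(TPM + 1). Between As2S2 and PMA RHOA was 0.29 on log2(TPM + 1), 0.12 with library totals alone and 0.00304 with the length trend removed.

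A change of scaling shifted all genes. With PMA 4494 genes were higher and 4540 lower under TMM, 2955 and 6476 with library totals alone (median of all genes -0.26) and 1971 and 6984 on log2(TPM + 1) (-0.26). With As2S2 the counts were 2962 and 2859, 2292 and 3537 (-0.08), and 1685 and 3066 (-0.07). Between As2S2 and PMA they were 4503 and 4463, 5770 and 3398 (0.18), and 5968 and 2320 (0.18). Of the lists, the midzone kinesins with As2S2 gave 2 rising and 0 falling on log2(TPM + 1), the mitotic genes 8 and 0, and the abscission genes 2 and 3. Without the libraries that stood apart, the As2S2 counts were 2 and 3 for the DREAM genes and 0 and 4 for the septins.

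With the replicate number as a block 7, 9 and 9 of the 10 genes passed (As2S2 against control, PMA against control, As2S2 against PMA), and 5972, 9180 and 9044 of all genes. RHOA with PMA lost its call (adjusted p = 0.0535, edgeR), and so did DLC1 with As2S2 (0.0539). The numbers pair nothing by the labels, and not every library correlated best with its own number.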
